A study of Mus musculus with 12 samples.

Results

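The genes encoding the proteins of the cytosolic ribosome were followed across kidneys of control mice and of mice with chronic kidney disease. They were chosen by name alone, as every symbol built from Rpl or Rps, an optional p, a number, and then at most 1 letter out of a, x, y and l and at most 1 further digit, which leaves out the Rps6k kinases. The rule found 83 of 23238 symbols, 51 of the large subunit and 32 of the small subunit, and each had a single entry. QuantSeq, a method that reads the 3′ ends of polyadenylated transcripts, had been applied to kidney RNA of C57BL/6 mice in 12 libraries. The 3 groups of 4 libraries were Control, chronic kidney disease (CKD), and CKD under time restricted feeding (CKD TRF), where mice can eat only within set hours. The labels used here give no genetic change, no age, no means of inducing the disease and no feeding hours, and they do not say whether each library came from its own animal. All p-values therefore measure the spread between libraries, which may be technical.

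The ribosome joins amino acids into protein and is built from a small subunit, which reads the messenger RNA, and a large subunit, which forms the peptide bond. Each ribosomal protein is needed in fixed proportion to the ribosomal RNA, and the cells of a tissue keep these transcripts abundant and largely coordinated. Translation of the whole family is raised by mTOR signalling through a run of pyrimidines at the very start of the transcripts, a feature that 3′ end counts do not read. The kidney tubule is rich in transport proteins and mitochondria and renews them continuously.

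Values are in scaled reads, that is, reads multiplied by a factor the authors set for each library, close in size to CPM. A value for 1 gene is read against the same gene in other libraries, since 3′ counts were not set per length. Libraries held between 10989953 and 17210138 recovered reads. A gene at 0 may still have had up to 3 reads, worth 0.168 to 0.306 scaled reads, a limit for counting error alone. The totals of scaled reads were 1076773 to 1180101 for Control, 987841 to 1025834 for CKD TRF and 941189 to 978419 for CKD, 3 ranges with no overlap. The kidney label was met by its defining markers: the summed level of 6 proximal tubule genes was 6415 to 8206 scaled reads in Control, against 4909 to 5390 in CKD and, in CKD TRF, 5195 to 6454. In bulk tissue, fewer cells of a type and less RNA per cell cannot be told apart. A change is the difference of mean log2 values between groups, given with its standard error (SE), and a gene is said to have risen or fallen where limma's adjusted p, over all 13943 tested genes, was under 0.05. Of the 83 genes, 81 entered this test, 49 large and 32 small; Rpl10l and Rpl39l lay below the level needed for testing.

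As a family the ribosomal protein transcripts took overlapping parts of the libraries of the 3 groups. Their summed share was 2.37%, 2.62%, 1.97% and 2.17% of scaled reads in Control 1 to 4, against 1.99%, 2.03%, 2.16% and 2.29% in CKD 1 to 4 and 2.38%, 2.16%, 2.12% and 2.25% in CKD TRF 1 to 4. The group means were 2.28% ± 0.280, 2.12% ± 0.137 and 2.23% ± 0.117 (SD, n = 4), and all 3 ranges overlapped. In scaled reads Control, CKD and CKD TRF had sums of 25641 ± 4166, 20239 ± 1580 and 22496 ± 1090 (SD, n = 4); the totals of the libraries also differed between groups, as given above. The reads of the large subunit genes over those of the small subunit genes gave ratios of 1.56 ± 0.0459, 1.56 ± 0.0225 and 1.52 ± 0.0343 in that order (SD, n = 4), again with overlapping ranges. Control 2 and Control 3 bounded the family: Control 2 was the highest of the 4 Control libraries for 60 of the 81 tested genes and Control 3 the lowest for 69. Within CKD, library 4 was the highest for 61 genes, library 1 was the lowest for 43 and library 2 for 32. The ribosomal RNA precursor Rn45s, a sign of how much ribosomal RNA entered a library, took 7.43% ± 2.72, 10.5% ± 0.942 and 11.9% ± 0.974 of scaled reads in the same order (SD, n = 4). Its part in the levels of the ribosomal protein genes was not tested, but a scaling that leaves it out is given with the results.

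**Figure D1:**
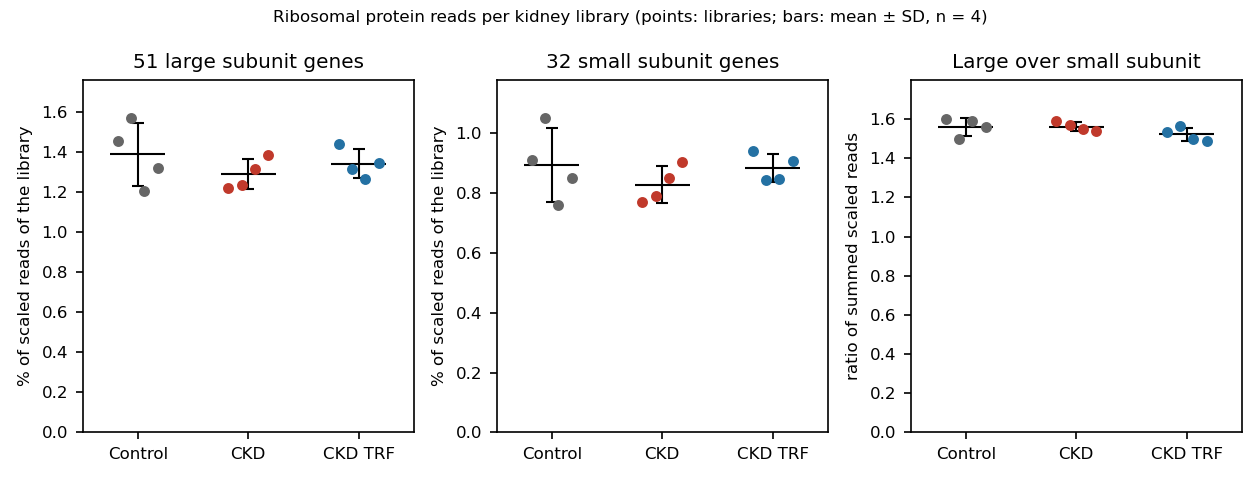
Share of each library's scaled reads held by the large subunit genes and the small subunit genes (% of scaled reads, left and centre) and the ratio of their summed scaled reads (right). Points are libraries and bars are mean ± SD (n = 4); the ranges of the 3 groups overlap in all 3 panels.

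In CKD against Control, 39 of the 81 ribosomal protein genes fell and 1 rose, so 49.4% of them were called, near the 45.4% of all tested genes. Of all tested genes 21.8% fell and 23.6% rose. The large subunit had 24 genes that fell and 1 that rose of 49, with a median change of -0.34. The small subunit had 15 that fell and none that rose of 32, with a median change of -0.25. The median changes of the whole table and of the 1395 genes with the highest mean level were 0.02 and -0.30, and of those 1395 genes 743 fell and 170 rose, or 65.4% called. The 77 ribosomal protein genes of the mitochondrion, which build the separate ribosome of that organelle, had a median of -0.41, with 47 that fell and 1 that rose. The groups did not overlap for 25 ribosomal protein genes, or 30.9%, all of them lower in CKD, against 39.5% of all tested genes.

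**Figure D2:**
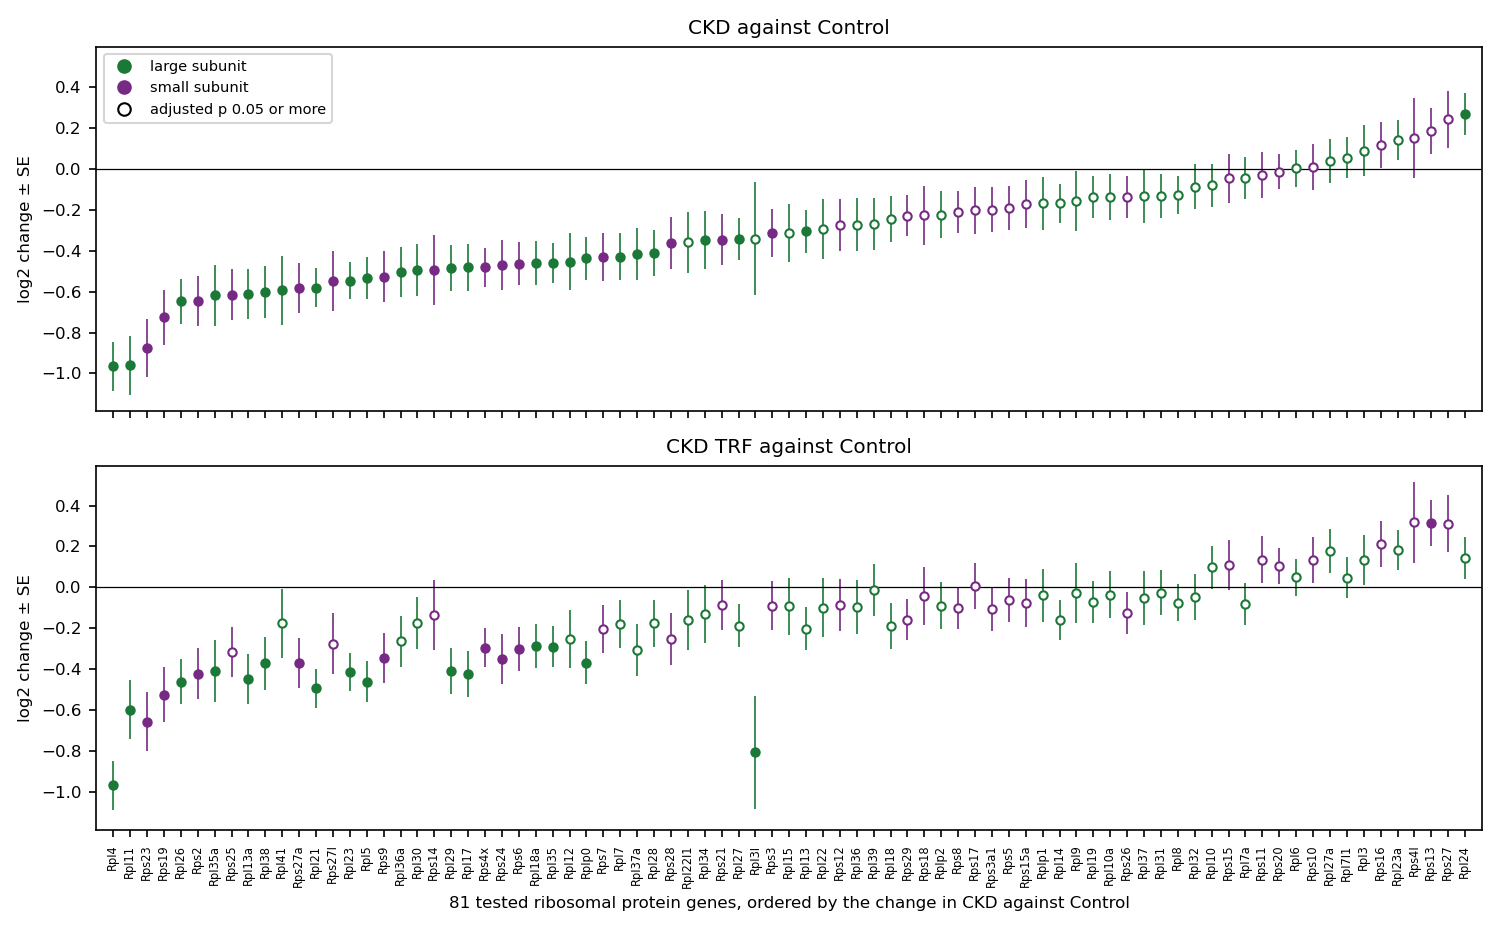
Log2 change ± SE of the 81 tested ribosomal protein genes (green, large subunit; purple, small subunit) in CKD against Control (top) and CKD TRF against Control (bottom), in the same order; filled points have an adjusted p under 0.05. In CKD the changes run from -0.97 (Rpl4) to 0.27 (Rpl24) and lie below 0 for 70 genes.

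How many of these genes fell depended on how the libraries were put on a common scale. Beside the deposited scaling, 6 others were run: centring each library on its median, quantile normalization, equal sums, equal sums without Rn45s, centring on the ribosomal protein genes themselves, and limma voom with trimmed mean scaling of the recovered reads. Equal sums left 17 genes that fell and 10 that rose, with a median of -0.09 for the family, while the median of all genes moved up to 0.23 (11.1% fell and 35.8% rose). Equal sums without Rn45s gave 13 and 11 (median -0.04; all genes 0.27, with 9.55% and 39.2%). Quantile normalization gave 17 and 10 (median -0.08, all genes -0.04, with 22.3% and 20.5%). Centring on the family gave 9 and 13 (all genes 0.33, with 6.3% and 37.2%). That centring holds the family's mean level equal in every library by construction, so its counts compare members with one another only. Median centring gave 54 genes that fell and none that rose (all genes 28.1% and 19%), and voom 38 and 1 (all genes 21.4% and 22.2%). Relative to the median of all tested genes the family's median was -0.34 as deposited, -0.31 at equal sums and -0.04 after quantile normalization. Equal sums multiplies a library by a single factor, so the closeness of its value to the deposited one follows largely from the method. The call of a fall for all 7 scalings was met by 8 genes, 4 of each subunit: Rpl4, Rpl11, Rpl26 and Rpl38, and Rps23, Rps19, Rps2 and Rps25. No gene was called in opposite directions by different scalings, none rose in all 7, and 12 were called in none. The shares of all tested genes that met these conditions were not computed, so the counts cannot be set against the whole table. In single scalings 6.3% to 28.1% of all tested genes fell.

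**Figure D3:**
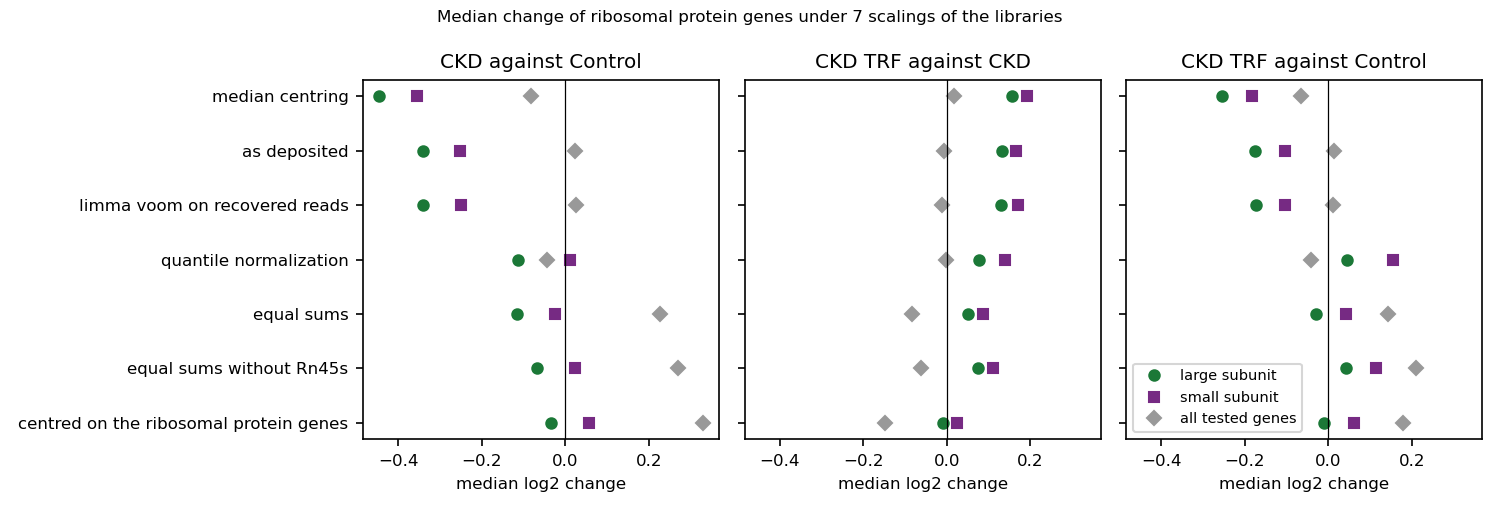
Median log2 change of the large subunit genes, the small subunit genes and all tested genes under 7 scalings of the libraries, in the 3 comparisons. In CKD against Control the large subunit median runs from -0.45 under median centring to -0.03 when libraries are centred on the family. That centring holds the family's mean level equal in every library by construction. The small subunit median passes above 0 in 3 scalings.

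The gene with the largest fall was Rpl4, whose protein lines the exit tunnel of the large subunit. It stood at 977, 690.2, 775 and 814 scaled reads in Control 1 to 4, at 422, 357, 439 and 440.1 in CKD and at 506, 356, 389 and 413 in CKD TRF. Every Control library lay above every diseased library. The change in CKD was -0.97 ± 0.12, adjusted p = 2.71e-06, and Rpl4's part of the family's reads went from 3.24% ± 0.686 in Control to 2.05% ± 0.161 in CKD (SD, n = 4), with Control 2 inside the CKD range. Rpl11, which joins Rpl5 and 5S ribosomal RNA in a particle that can also bind and restrain Mdm2, the regulator of p53, measured 109.9, 96.1, 71.1 and 92.2 in Control and 37.1, 41.6, 50.1 and 59.7 in CKD. These ranges did not overlap, and the change was -0.96 ± 0.14, adjusted p = 2.11e-05. Rps23, a small subunit protein at the decoding centre, measured 530.2, 583, 391 and 461 in Control and 233, 226, 299.9 and 309 in CKD without overlap, a change of -0.88 ± 0.14, adjusted p = 5.65e-05.

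Rps19, whose mutations cause Diamond-Blackfan anaemia in people, measured 123, 162, 103 and 108 scaled reads in Control and 69.4, 60.5, 78.5 and 87.7 in CKD. Its groups did not overlap and its change was -0.73 ± 0.13, adjusted p = 0.000184. Rpl26, near the exit of the peptide tunnel, went from 666, 749, 559.7 and 705 to 406, 380.1, 469 and 451, a change of -0.65 ± 0.11, adjusted p = 8.27e-05, again with no overlap. Rps2, at the entry of the messenger RNA channel, went from 239.5, 234, 169 and 202 to 109.9, 126, 139 and 164, a change of -0.65 ± 0.12, adjusted p = 0.000263. Rps25 and Rpl38 completed the 8 genes, with changes of -0.61 ± 0.12 and -0.60 ± 0.13. Rpl38 is known for a part in translating a subset of messages during development, and Rps25 for the use of some internal ribosome entry sites. In GRCm38 (GENCODE M21) these 8 genes lie as follows: Rpl4 at chr9:64173375-64178666, Rpl11 at chr4:136028265-136053428, Rps23 at chr13:90922958-90924950, Rps19 at chr7:24884371-24889806, Rpl26 at chr11:68901583-68906989, Rps2 at chr17:24718116-24721929, Rps25 at chr9:44407139-44410427 and Rpl38 at chr11:114668524-114672331.

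**Figure D4:**
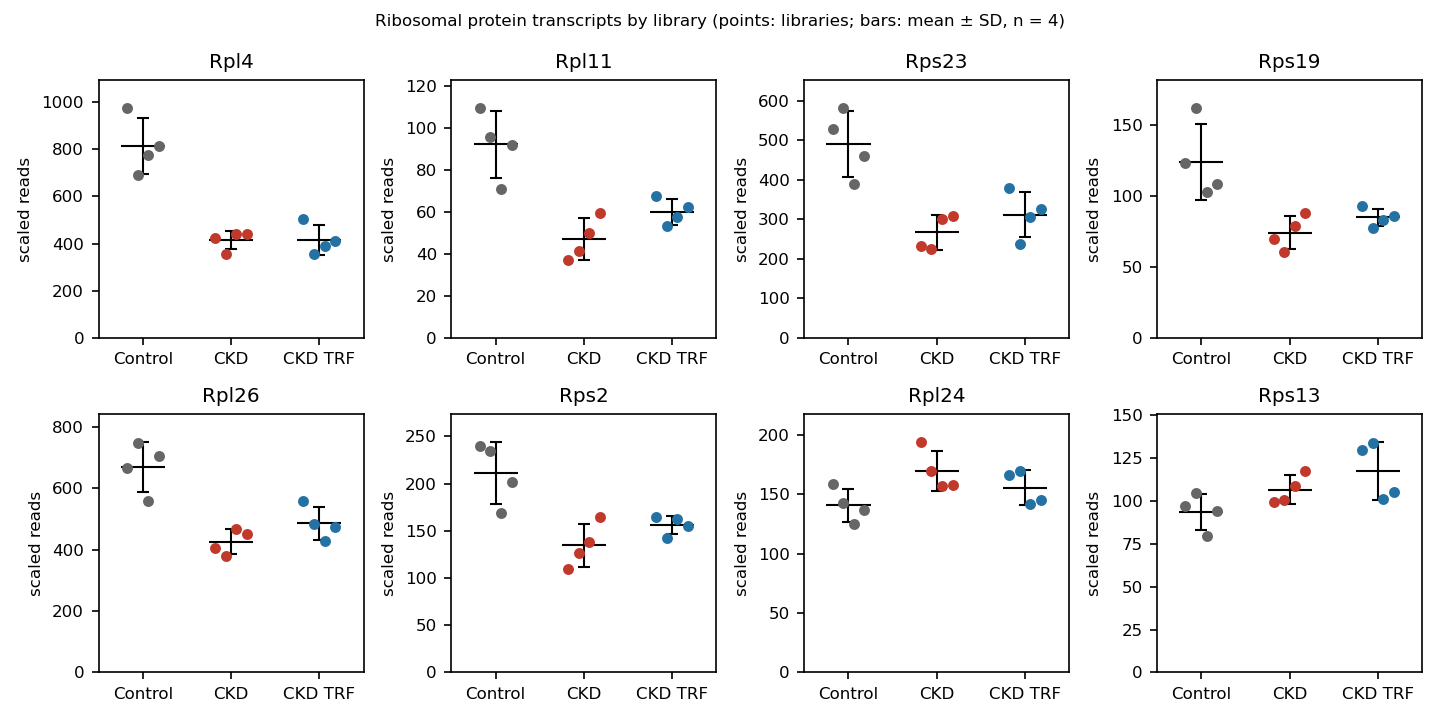
Scaled reads of 8 ribosomal protein genes by library; points are libraries and bars are mean ± SD (n = 4). Rpl4, Rpl11, Rps23, Rps19, Rpl26 and Rps2 lie lower in every CKD library than in any Control library, while Rpl24 and Rps13 overlap between groups.

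Rpl24, a late-joining large subunit protein that bridges to the small subunit, was the 1 gene that rose. It measured 159, 142, 125 and 137 scaled reads in Control and 194, 169.5, 157 and 158 in CKD, ranges that overlap through Control 1. The change was 0.27 ± 0.10, adjusted p = 0.0374, it rose in 6 of 7 scalings, and the call was lost when Control 3, Control 4, CKD 1 or CKD 2 was left out (adjusted p 0.0508 to 0.199 over the 9 of 27 alternatives that lost it). As a part of the family's reads Rpl24 went from 0.555% ± 0.0637 in Control to 0.846% ± 0.147 in CKD (SD, n = 4), without overlap. Rps27 moved the same way in that measure, from 0.289% ± 0.0318 to 0.429% ± 0.020 (SD, n = 4), although its own change of 0.24 ± 0.14 did not pass (adjusted p = 0.163); without Control 2 it was 0.39 and passed (adjusted p = 0.0141). In all, the part of the family's reads did not overlap between CKD and Control for 31 of 81 genes. These parts add to a fixed whole, so falls of some members raise the parts of others. The measure has no counterpart over all genes. In scaled reads, 39.5% of all tested genes did not overlap between CKD and Control.

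Rpl5, the partner of Rpl11 in the particle with 5S RNA, measured 453, 456, 382 and 436 in Control and 278, 281, 319.9 and 313 in CKD, a change of -0.53 ± 0.10, adjusted p = 0.000249. Those ranges did not overlap, and the call was lost in 2 of 7 scalings. In the stalk, the flexible arm of acidic proteins that recruits elongation factors, Rplp0 fell (-0.44 ± 0.11, adjusted p = 0.0023; 367, 381, 298 and 289 in Control and 209, 239.7, 263 and 271 in CKD, no overlap), a call lost in 4 of 7 scalings (adjusted p up to 0.353). Rplp1 measured 1742, 2294, 1397 and 1497 in Control and 1437, 1502, 1544 and 1565 in CKD, overlapping ranges with a change of -0.17 ± 0.13, adjusted p = 0.297. Rplp2 measured 379, 483, 324 and 330.1 and 281, 332, 331 and 339, with a change of -0.23 ± 0.12, adjusted p = 0.117; without Control 3 it was -0.29 (adjusted p = 0.0493). After quantile normalization the change of Rplp1 was 0.33 (adjusted p = 0.0183). The difference between the 3 stalk genes was not tested.

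Rps6, the ribosomal protein phosphorylated downstream of mTOR, measured 192, 198, 157 and 169.7 in Control and 123, 119.8, 135 and 141 in CKD without overlap, a change of -0.46 ± 0.11, adjusted p = 0.00153, lost as a call in 4 of 7 scalings (adjusted p up to 0.273). Rps27a, made as a fusion with ubiquitin, measured 385, 446, 298 and 405 and 247, 225, 266 and 275, also without overlap (-0.58 ± 0.12, adjusted p = 0.000688), a call lost in 2 of 7 scalings. Rpl13a, known for its release from the ribosome in inflammatory signalling, measured 579.8, 689, 502 and 573 and 364, 327, 414 and 425 (-0.61 ± 0.12, adjusted p = 0.000398). Rpl13a, Rps18 and Rpl19 are also used as reference genes for quantitative PCR. Rps18 measured 206, 285, 153 and 186 in Control and 140.2, 174, 191 and 191 in CKD, overlapping ranges with a change of -0.23 ± 0.14, adjusted p = 0.202. Rpl19 measured 177, 170.0, 123 and 143 and 134, 139.9, 138 and 139 with a change of -0.14 ± 0.10, adjusted p = 0.283. Rpl13a fell in 6 of 7 scalings, and Rps18 and Rpl19 were called in none. Rps3, which also takes part in DNA repair, measured 451, 517, 332 and 397 and 299, 326, 329.8 and 398, a change of -0.31 ± 0.12, adjusted p = 0.0355, a call that was lost when Control 1, Control 2, CKD 1, CKD 2 or CKD 3 was left out (adjusted p 0.0629 to 0.965 over the 14 of 27 alternatives that lost it). Without Control 3, Rpl19 and Rps18 passed as well (adjusted p = 0.0447 and 0.0338).

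Several of these genes have a paralogue, a near relative with a similar protein. Rps27l fell from 316, 389, 202 and 258 to 182, 161, 224 and 212 (-0.55 ± 0.15, adjusted p = 0.00504), while its partner Rps27 did not pass. Rps4x fell from 206, 196, 169.8 and 188 to 133, 123, 139 and 149 (-0.48 ± 0.10, adjusted p = 0.000415), while Rps4l measured 25.6, 31.1, 15.4 and 16.3 and 22.2, 21.8, 20.8 and 30.7 (0.15 ± 0.20, adjusted p = 0.562). Rpl7 fell (-0.43 ± 0.12, adjusted p = 0.00487), and Rpl7l1 measured 72.2, 89.6, 81.5 and 81.03 in Control and 77.2, 94.1, 81.3 and 84.2 in CKD (0.05 ± 0.10, adjusted p = 0.695). Rpl22, which measured 983, 1524, 801 and 979.9 in Control and 759.6, 809.7, 942 and 895 in CKD, and Rpl22l1 had changes of -0.29 ± 0.15, adjusted p = 0.106 and -0.36 ± 0.15, adjusted p = 0.0522. The calls of Rps27l and Rpl7 were lost in 4 of 7 scalings (adjusted p up to 0.126 and 0.417) and without 5 diseased libraries with the fat gene Adipoq above 2 on the log2 scale, and that of Rps4x in 2 of 7. Rpl3, Rpl10 and Rpl39 had changes of 0.09 ± 0.12, -0.08 ± 0.10 and -0.27 ± 0.13, none of which passed. Other scalings called some of these paralogues. Rpl3 rose in 4 of them (adjusted p 0.0117 to 0.0306), Rpl7l1 in 3 (0.0127 to 0.0442) and Rps4l in 1 (0.0409). Rps27 rose at equal sums, with and without Rn45s, and when libraries were centred on the family. Median centring called falls of Rpl22, Rpl22l1 and Rpl39. Without Control 3, Rpl22, Rpl22l1 and Rpl39 passed, with changes of -0.42, -0.51 and -0.40, and Rpl22l1 passed without CKD 3 or CKD 4 as well (adjusted p = 0.0498 and 0.0316). The muscle form Rpl3l was low, at 3.68, 3.68, 4.17 and 5.03 in Control and 4.48, 1.51, 3.42 and 3.34 in CKD, and the forms known from testis, Rpl10l and Rpl39l, reached at most 0.348 and 0.561 scaled reads in Control and CKD. No test of the difference within a pair was run.

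Between CKD TRF and CKD no ribosomal protein gene was called by limma, as for all 13943 tested genes (0%), and voom also called none. At an unadjusted p under 0.05 there were 8 of the 81 genes and 890 of all genes. The changes leaned upward: the median was 0.13 for the large and 0.17 for the small subunit against -0.01 for all genes, and 5 of 81 changes were below 0. An upward median was also found outside the family. It was 0.08 for the 77 mitochondrial ribosomal protein genes and 0.06 for the 1395 genes with the highest mean level. Centring libraries on the family holds its mean level equal by construction. The large subunit median of -0.01 found there is therefore no check of the family's lean. Relative to the median of all genes, the large subunit stood at 0.14 both as deposited and after that centring. The centring subtracts the same number from every gene of a library and cannot change this difference, so the equality is no check either. After quantile normalization the difference was 0.08 for the large subunit and 0.14 for the small. CKD TRF and CKD did not overlap for 6 genes (7.41%, against 4.5% of all genes), all higher in CKD TRF. The same held for 9.09% of the mitochondrial ribosomal protein genes, all higher. Of the 1395 genes with the highest mean level it held for 7.67%, with 88 higher and 19 lower. Single members of the 6 follow. Rps14, a small subunit protein at the platform, was 673, 823, 903 and 891 in CKD and 1033, 986, 1079 and 1108 in CKD TRF, with a change of 0.36 ± 0.17, adjusted p = 0.782. Rplp1 was 1437, 1502, 1544 and 1565 and 1606, 1638, 1699 and 1679.9 (0.13 ± 0.13, adjusted p = 0.892), and Rps20 and Rpl19 had changes of 0.12 ± 0.09 and 0.07 ± 0.10. Rpl35 and Rpl36 made up the 6, at 0.17 ± 0.10 and 0.18 ± 0.13. Rpl11 had a change of 0.36 ± 0.14, adjusted p = 0.719 and Rpl4 one of -0.00 ± 0.12, adjusted p = 0.997. Both comparisons with Control share its 4 libraries, so their values are given side by side without a measure of likeness.

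In CKD TRF against Control, 23 ribosomal protein genes fell and 1 rose, or 29.6%, against 37.5% of all tested genes, of which 17.9% fell and 19.5% rose. The large subunit had 15 that fell of 49 (median -0.18), and the small subunit 8 that fell and 1 that rose of 32 (median -0.10); the median of all genes was 0.01. Quantile normalization turned the balance to 8 genes that fell and 14 that rose (all genes 17.7% and 17.1%), with medians of 0.04 and 0.15 for the large and small subunit. Equal sums gave 9 and 9 (all genes 10.3% and 26.2%), equal sums without Rn45s 4 and 15 (8.06% and 31.5%; medians 0.04 and 0.11), and centring on the family 4 and 8 (6.71% and 22.4%). Median centring gave 29 and none (23.1% and 16.5%), and voom 23 and 1 (17.5% and 17.7%). Groups did not overlap for 11 genes (13.6%, against 31.9% of all genes). The count of called genes was 15 without CKD TRF 3 (33.4% of all genes), 16 without CKD TRF 2 (33.7%) and 16 without Control 1 (31.5%), and without Control 2 there were 15 that fell and 5 that rose (17.2% and 18.7% of all genes). Leaving out the 5 diseased libraries with Adipoq above 2 left CKD TRF 2 as the lone library of its group, assumed to vary like the others; Rpl4, Rpl21, Rps23 and Rpl29 were then called, all 4 lower (4.83% of all genes fell and 5.77% rose). In 3 genes the fall held in all 7 scalings, Rpl4 (-0.97 ± 0.12, adjusted p = 4.21e-06), Rps23 (379, 239, 306 and 326 in CKD TRF, -0.66 ± 0.14, adjusted p = 0.00127) and Rpl11 (67.6, 53.2, 57.6 and 62.3, -0.60 ± 0.14, adjusted p = 0.00268). The share of all tested genes with such a fall was not computed. Rps19 was 92.6, 77.5, 83.2 and 85.4 (-0.52 ± 0.13, adjusted p = 0.00411) and Rpl5 374, 291, 288 and 306 (-0.46 ± 0.10, adjusted p = 0.00129), calls lost in 1 and 3 of 7 scalings. Rpl21, a large subunit protein, was 162, 148, 147 and 154 in Control, 92.9, 96.8, 104 and 114 in CKD and 121, 98.4, 104 and 111 in CKD TRF, lower in both diseased groups without overlap (-0.49 ± 0.10, adjusted p = 0.000452 in CKD TRF).

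Rps13 rose in CKD TRF against Control. It measured 97.1, 105, 79.5 and 94.3 in Control, 99.7, 100.3, 109 and 118 in CKD and 129.9, 134, 101 and 105 in CKD TRF, with Control 2 inside the CKD TRF range, and its change was 0.32 ± 0.11, adjusted p = 0.0314. It rose in 6 of 7 scalings, and the call was lost without Control 3, Control 4, CKD TRF 1 or CKD TRF 2 (adjusted p 0.051 to 0.146 over the 11 of 28 alternatives that lost it). Rpl3l, at 1.29, 1.92, 3.99 and 1.18 in CKD TRF, fell (-0.81 ± 0.28, adjusted p = 0.0258), a call lost without Control 4, CKD TRF 1 or CKD TRF 4 and in 3 of 7 scalings (adjusted p 0.055 to 0.183 over the 10 alternatives that lost it). Rps27a, Rps4x and Rps6 fell in CKD TRF, with changes of -0.37 ± 0.12, -0.30 ± 0.10 and -0.30 ± 0.11. Each of those 3 calls was lost without CKD TRF 2 or CKD TRF 3, that of Rps27a also without Control 2 or 4, that of Rps4x without Control 1 and that of Rps6 without Control 1 or 2. Over the alternatives that lost them the adjusted p reached 0.518, 0.523 and 0.54 in that order.

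Part of these genes carry, at their annotated starts, the sequence feature for which the family is known. In the RefSeq promoter table (GRCm38.p6), 62 of the 83 genes had a start, and 29 of them (46.8%) had a C followed by at least 4 more pyrimidines, beginning within 5 bases of a start on the gene's own strand. A gene with several listed starts was counted if any of them had the run, so the shares depend on how many starts are listed. The window also takes runs that end before the start, as in Rpl19. This was 17 of 39 large and 12 of 23 small subunit genes, against 21.2% of all 27025 genes in the table and 24.6% of 69 mitochondrial ribosomal protein genes. A match, or the lack of one, describes letters around the annotated start and says nothing of use. Genes from both classes are shown with 40 bases before and 20 after the start, with the run in capitals, because genes that fell are found with and without the run. The first 5 carry it, and the last 4 have no run that begins within 5 bases of the annotated start. Pyrimidine runs that begin elsewhere, as in Rpl4 shortly before the start, were not counted, so the class depends on where the start is annotated.
Rps23 (chr13:90923082-90923141, plus strand): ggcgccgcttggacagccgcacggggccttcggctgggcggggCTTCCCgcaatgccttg
Rpl38 (chr11:114668540-114668599, plus strand): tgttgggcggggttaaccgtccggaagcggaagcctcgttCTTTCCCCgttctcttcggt
Rps2 (chr17:24720023-24720082, plus strand): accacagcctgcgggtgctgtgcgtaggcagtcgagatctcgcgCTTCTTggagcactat
Rpl13a (chr7:45128726-45128785, minus strand): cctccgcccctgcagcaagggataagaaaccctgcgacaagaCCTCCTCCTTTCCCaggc
Rps27 (chr3:90213629-90213688, minus strand): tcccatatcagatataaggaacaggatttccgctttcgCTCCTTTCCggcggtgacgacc
Rpl4 (chr9:64173347-64173406, plus strand): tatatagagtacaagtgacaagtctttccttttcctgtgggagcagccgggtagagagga
Rpl11 (chr4:136053374-136053433, minus strand): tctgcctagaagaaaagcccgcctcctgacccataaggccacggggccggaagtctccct
Rps19 (chr7:24884552-24884611, plus strand): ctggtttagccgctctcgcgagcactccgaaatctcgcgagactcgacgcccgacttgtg
Rpl24 (chr16:55966235-55966294, plus strand): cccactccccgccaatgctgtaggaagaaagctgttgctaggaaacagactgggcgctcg
The 29 tested genes with a run in that window had a median change in CKD against Control of -0.35, with 14 that fell. The 31 without a run in that window had a median of -0.34, with 17 that fell and 1 that rose. Of all tested genes 21.8% fell and 23.6% rose.

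Ribosomal protein genes have many copies in the genome, so a read from the last bases of a transcript may fit several places. In the last 200 bases of each principal transcript, windows of 50 bases were compared with all other transcripts. Of the 81 tested genes, 21 shared no window, 26 shared up to 50% and 33 over 50%; Rps4l had no coding transcript to compare. The median change in CKD against Control was -0.42, -0.35 and -0.25 in that order, with 12, 13 and 14 genes that fell. Of all tested genes 21.8% fell. Rpl4, Rpl11, Rps23, Rpl5, Rpl13a and Rplp0 shared none. Rpl24 shared 68.9% of its windows, Rps13 80.1%, Rps2 76.6% with 40 other genes, Rpl21 50.2% with 53, and Rps27 and Rpl10 100%; how the authors' counting split such reads is not given in the sources used here, and these values are uncertain.

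The files also list 9 entries named as copies of 8 of these genes. Of the copies, 5 fell in CKD against Control and none rose, while 2 of the 8 parents fell. Of all tested genes 21.8% fell and 23.6% rose. No test compared the counts of copies and parents. Rpl14-ps1 measured 150.5, 185, 147 and 159 in Control and 93.0, 83.9, 96.5 and 102 in CKD without overlap, a change of -0.76 ± 0.10, adjusted p = 5.96e-06, where its parent Rpl14 had -0.17 ± 0.10. Rpl37rt changed by -0.45 ± 0.14 and Rpl37 by -0.14 ± 0.13. The opposite order was seen for Rps19, which fell (-0.73 ± 0.13) while Rps19-ps3 was at -0.18 ± 0.15. Whether reads of a parent were counted under its copy was not tested, and the difference between parent and copy was not tested.

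**Figure D5:**
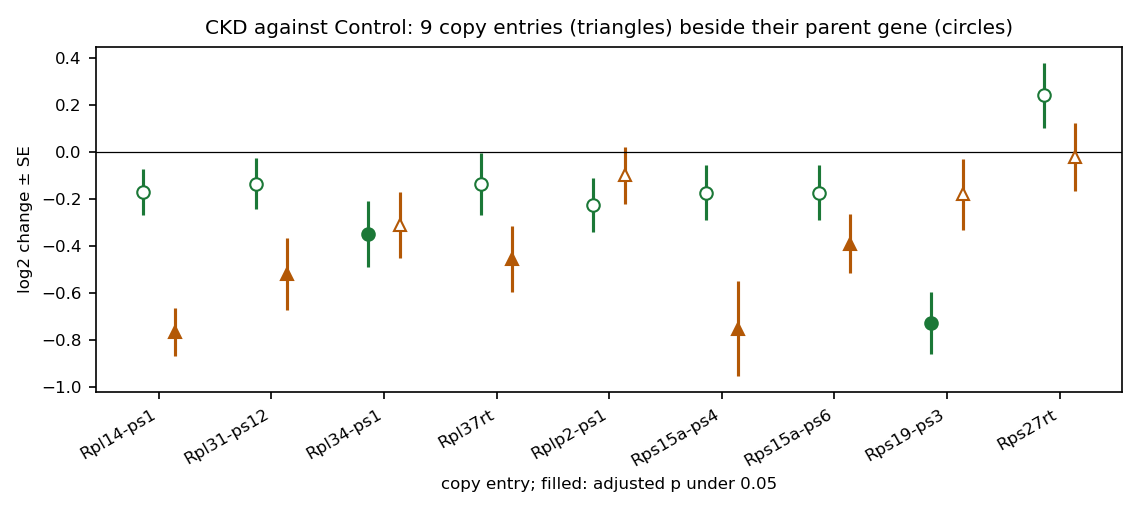
Log2 change ± SE in CKD against Control for the 9 entries named as copies (triangles) beside their parent genes (circles); filled symbols have an adjusted p under 0.05. Rpl14-ps1 lies at -0.76 and Rpl14 at -0.17, while Rps19-ps3 lies at -0.18 and Rps19 at -0.73.

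Ribosomal proteins whose names fall outside the rule went both ways. Rpsa, a small subunit protein also known as the laminin receptor, was 168, 179.8, 145 and 146 in Control and 208, 202, 186 and 197 in CKD, higher without overlap (0.32 ± 0.09, adjusted p = 0.00774). Rpl36al fell from 327, 259, 240.0 and 264 to 153, 149.9, 158 and 155 (-0.81 ± 0.10, adjusted p = 1.53e-06). Fau and Gnb2l1, the gene of the scaffold protein Rack1, were at -0.09 ± 0.12 and -0.01 ± 0.09.

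Genes that build, supply and control the ribosome were counted from lists. In CKD against Control 48.8% of translation factors, 38.1% of assembly genes and 23.3% of polymerase genes were called. The shares were 41.2% for control genes and 50% for rescue and stress genes. Of all tested genes 45.4% were called, with 21.8% that fell and 23.6% that rose. Of 41 tested translation factors 19 fell and 1 rose in CKD against Control, among them Naca, a chaperone of nascent chains (-0.75 ± 0.11, adjusted p = 1.51e-05), and Eif5a, which relieves stalled elongation (-0.73 ± 0.13, adjusted p = 0.000155); Eif3b rose (0.32 ± 0.11). Of 63 ribosome assembly genes 22 fell and 2 rose. Sbds, which frees new large subunits from the factor Eif6, was 104, 93.2, 88.0 and 88.9 in Control and 40.01, 44.5, 49.0 and 51.2 in CKD, without overlap (-1.005 ± 0.12, adjusted p = 2.3e-06). Eif6 itself was 48.6, 54.4, 54.6 and 52.1 and 77.2, 86.0, 77.5 and 67.5, higher without overlap (0.54 ± 0.11, adjusted p = 0.000413). Nmd3, the export adaptor of the large subunit, fell (-0.73 ± 0.16) and Utp15 rose (0.46 ± 0.16).

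Of 30 genes of RNA polymerases I and III, which make ribosomal and transfer RNA, 5 fell and 2 rose, with Taf1c at 0.99 ± 0.21, Znrd1 at -0.60 ± 0.23 and Polr1d at -0.41 ± 0.13. Of 17 genes that control ribosomal protein synthesis 4 fell and 3 rose. Mtor was 99.8, 110.2, 164 and 159 in Control and 81.9, 70.2, 77.4 and 69.6 in CKD, a fall without overlap (-0.79 ± 0.14, adjusted p = 0.000107), and Eif4ebp2 fell (-0.63 ± 0.14). Tsc2, a brake on mTOR, rose by 0.55 ± 0.13. Myc, a driver of ribosome production, was 0.510, 0, 0.255 and 1.37 in Control, 2.47, 3.36, 2.79 and 2.29 in CKD and 0.716, 1.26, 0.834 and 0.723 in CKD TRF, at few reads (1.35 ± 0.26, adjusted p = 0.000345 in CKD). Of 14 genes of ribosome rescue and stress 5 fell, led by Rnf10 (-0.79 ± 0.11) and Edf1 (-0.62 ± 0.10), and Zak, a sensor of stalled ribosomes, and Gcn1l1 rose (1.21 ± 0.16 and 0.59 ± 0.16).

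In CKD TRF against Control the same lists had 14 translation factors that fell and 2 that rose, and 22 assembly genes that fell and 1 that rose. There were 3 and 2 polymerase genes, 5 and 1 control genes and 5 and 2 rescue genes. The shares called were 39%, 36.5%, 16.7%, 35.3% and 50% in that order, against 37.5% of all tested genes. Sbds was 35.8, 36.8, 41.7 and 53.3 in CKD TRF, with a change of -1.15 ± 0.12, adjusted p = 7.16e-07, and Eif6 was 63.8, 87.0, 78.3 and 76.9, with a change of 0.53 ± 0.11, adjusted p = 0.000713. Mtor was 79.3, 62.0, 65.7 and 68.4 (-0.91 ± 0.14, adjusted p = 3.64e-05). None of these list genes was called between CKD TRF and CKD.

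Over the 12 libraries, the tested genes outside the rule whose log2 values correlated most with the mean of the ribosomal protein genes were Eif3k (Pearson's r 0.965), Tomm5 (0.963), Myeov2 (0.96), Rpl37rt (0.959), Snrpe (0.959) and Atp5j2 (0.958). These values describe libraries that share group, depth and scaling.

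Markers of several cell types moved with the disease beside the ribosomal protein genes, and their part in the results was not tested. Of 6 proximal tubule markers 4 fell in CKD against Control and in CKD TRF against Control. All 3 loop and distal tubule markers rose in CKD, with sums of 1398 to 2821 scaled reads in Control and 2707 to 2857 in CKD, and 1 of the 3 rose in CKD TRF. Of 2 collecting duct markers 1 rose in each diseased group against Control, as did 1 of 2 podocyte markers, and the 1 tested B cell marker of 3 was not called. All 6 macrophage markers rose, with sums of 148 to 169.8 scaled reads in Control against 442 to 590.0 in CKD and, in CKD TRF, 419 to 542. All 3 fibroblast and all 4 urothelium markers rose, and all 4 red cell markers fell, from sums of 4873 to 13469.6 in Control to 2028 to 3343 in CKD. Of 4 T cell markers 3 rose (sums of 1.20 to 2.38 in Control and 5.97 to 12.6 in CKD), and of 4 fat markers 3 rose, where Plin1 was at 0 in every Control library and the sums were 104 to 226 in Control against 70.1 to 690.2 in CKD and, in CKD TRF, 34.3 to 308. With a covariate for the fat markers 34 ribosomal protein genes fell and 1 rose in CKD against Control, with a median of -0.35, where 35.5% of all genes were called (17.1% fell and 18.4% rose). Without the 5 libraries named above, which left CKD 1 and CKD 3, 27 fell and none rose, where 29% of all genes were called (13.9% fell and 15% rose).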

How the data were processed

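The deposited files held 1 log2 value per gene symbol and library for 23282 entries, scaled by the authors; the unit was read from the values as log2 of a scaled read number plus 1. Bowtie2, bedtools and mm10 are named without version or role, per the submitters' processing notes. The scaling method, the treatment of reads that fit several places and the strand setting are not given in the sources used here. At least 98.9% of the low values of each library came out whole in reads, to a tolerance of 0.1. RNA was extracted with Trizol, and 500 ng per library went into a Lexogen kit, per the labels' protocols.

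The 60% of genes with the highest mean were tested in limma 3.58.1 (R 4.3.3), with a mean per group over all 12 libraries, a moderated two-sided test whose prior spread followed the mean, and Benjamini-Hochberg adjustment over 13943 genes. The test was tried on simulated data. Values were named by rule: the 6 largest called changes without overlap per comparison, calls in the rarer direction, paralogues, stalk genes and genes with a role of their own; for other lists, the 2 largest calls each way. Some genes that this rule named are not reported here. The genes and lists were chosen with earlier results of these data known. Alternatives covered scaling, filters, spread, sample weights, a replicate block, fat markers and leaving out each library; equal sums without Rn45s, centring on the family and the exclusion at Adipoq above 2 were added after seeing the data.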

Additional observations from a re-analysis of the deposited data

Results flagged for a closer look

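Of 105 sets of 4 libraries checked for a single library far from the other 3, 7 were marked, and chance marks about 1 in 20. That rate does not hold for genes near 0, such as Rpl10l and Rpl39l. Where the other libraries of a group are all at 0, any value above 0 is marked. Rplp2 was 280.5 scaled reads in CKD 1 and 331 to 339 in the other CKD libraries. Rps4l was 30.7 in CKD 4 against 20.8 to 22.2 in the other CKD libraries, and 19.95 in CKD TRF 2 against 28.2 to 29.97 in the other CKD TRF libraries. Rpl10l, a gene known from testis, was 0.276 in Control 2 and 0.348 in CKD 3, where the other libraries of each group were at 0, and 0.537 in CKD TRF 3 against at most 0.0718. Rpl39l was 2.09 in CKD TRF 3 and 0 in the other CKD TRF libraries.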

How the results depend on the processing

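Over the alternatives, named genes kept their side of the threshold in 2348 cases, 117 of them with the other sign and no call, lost a call in 140, gained one in 48 and reversed in 3; counts and medians of the subunits stayed within their limits in 301 cases and moved in 27. After quantile normalization Rplp1 reversed to 0.33 in CKD and 0.30 in CKD TRF against Control (adjusted p = 0.0183 and 0.0339), and Rps3 in CKD to 0.0075 (adjusted p = 0.964). In CKD against Control the called large subunit genes went from 25 to 16 at equal sums, 14 without Rn45s and 11 centred on the family. Of all genes 46.9%, 48.7% and 43.5% were called there, against 45.4% as deposited. The large subunit medians were -0.12, -0.069 and -0.034 in the same order, and -0.11 after quantile normalization. The called small subunit genes went from 15 to 9 after quantile normalization (42.8% of all genes) and to 9 without the 5 libraries with Adipoq above 2 (29%). Their median was 0.012 after quantile normalization, -0.025 at equal sums, 0.022 without Rn45s and 0.056 centred on the family. In CKD TRF against Control the called large subunit genes went from 15 to 4 centred on the family, where 29.2% of all genes were called, against 37.5% as deposited. Their median was 0.045 after quantile normalization and 0.043 without Rn45s. It was -0.19 both without the 5 libraries and at the planned limit of Adipoq above 1. The small subunit calls went from 9 to 3 with no filter (4300 of all 23238 genes) and 4 with a constant prior spread (4942 of all 13943). The small subunit median was 0.15 after quantile normalization, 0.11 without Rn45s and -0.16 under both exclusions. Both exclusions left CKD TRF 2 alone, assumed to vary like the other groups; the planned limit left no CKD library, so comparisons with CKD could not be fitted. Fewer libraries and, for the filter, more genes tested are part of these settings; otherwise the cause was not tested.

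Leaving out 1 library at a time gave 21 to 32 large and 11 to 22 small subunit calls in CKD against Control (38.6% to 45.3% of all genes). In CKD TRF against Control it gave 11 to 17 and 4 to 12 (31.5% to 36.9% of all genes), and in CKD TRF against CKD 0. The small subunit calls in CKD TRF against Control were 5 without Control 1 and 4 without CKD TRF 2 or CKD TRF 3. The large and small subunit medians ran from -0.42 to -0.24 and -0.38 to -0.16 in CKD against Control. They ran from -0.26 to -0.09 and -0.20 to -0.00 in CKD TRF against Control, and from 0.09 to 0.17 and 0.12 to 0.23 in CKD TRF against CKD. Without Control 3, 54 ribosomal protein genes fell in CKD (21.6% of all genes); without Control 2, 33 fell and 2 rose (21.2% and 22.4%).

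The groups share replicate numbers, but deviations of same-numbered libraries correlated at -0.18 to 0.11, so the numbers were not taken as pairs. With a replicate block, 25 large and 15 small subunit genes were called in CKD against Control, with medians of -0.34 and -0.25, and 14 and 9 in CKD TRF against Control. Of all 13943 tested genes 6131 and 5033 were then called in these comparisons.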
